A study of Mus musculus with 4 samples.

Results

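The cytosolic ribosomal proteins were taken as the genes whose name on the array was Rpl or Rps followed by a digit, without the S6 kinase genes (Rps6k), together with Rplp0, Rplp1, Rplp2 and Rpsa. This gave 82 genes with 137 probes, of 27962 gene names and 41174 probes on the array, and the brightest probe stood for each gene. Of these genes, 49 carry the name of a large-subunit protein and 33 that of a small-subunit protein. Their mRNAs were measured on two-colour Agilent whole mouse genome arrays in livers and spleens from male mice of the strain C57BL/6J, aged 13 weeks and kept on their diet for 4 weeks. The low-NP control mice received a purified diet low in nucleoprotein, with 0.03% nucleic acids, and the NP mice received that diet with nucleoprotein added at 1.2%, which brought nucleic acids to 0.5%. RNA was pooled per diet and tissue, so each diet was counted as 1 replicate per tissue, and how many mice made up a pool is not in the labels. Both diets were hybridised together on 2 arrays per tissue. Array 1 held the NP pool in Cy5, and array 2 was the dye swap, with the NP pool in Cy3. The pooled samples are numbered in step with the dyes, and both arrays of a tissue were taken to hold the same pools, which the labels leave unsettled.

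The ribosome is the particle that translates mRNA into protein. Its small subunit binds and reads the mRNA, and its large subunit joins the amino acids and lets the growing chain out through a tunnel. Each ribosomal protein is present mostly in a single copy per ribosome, and the mRNAs of these proteins are among the most abundant of a cell. They begin with a run of pyrimidines, the terminal oligopyrimidine (TOP) tract, through which the mTOR pathway sets how strongly they are translated when nutrients change. In liver and spleen, as elsewhere, they are expressed by all cell types, so a bulk sample measures them over its whole mix of cells, and fewer cells of a type cannot be told apart from less RNA per cell.

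The array probes are shown for the genes on which the comparisons below turn, as 60 bases each in the array's own orientation, with positions in mm7 from the array files. Rps9 and Rpl3 are shown since their arrays kept a shared sign in both tissues. Rps15a and Rps24 are shown since they were among the members lowest in NP liver. The other probes belong to a ribosomal protein and its paralogue, a gene copy that encodes a similar protein.
Rps9: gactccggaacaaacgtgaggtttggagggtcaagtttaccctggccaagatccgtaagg
Rpl3: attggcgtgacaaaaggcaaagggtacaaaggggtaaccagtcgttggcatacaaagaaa
Rps15a: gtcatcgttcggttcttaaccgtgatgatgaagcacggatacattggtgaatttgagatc
Rps24: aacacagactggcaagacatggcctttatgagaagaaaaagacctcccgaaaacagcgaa
Rpl22: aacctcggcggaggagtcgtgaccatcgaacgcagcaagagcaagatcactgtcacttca
Rpl22l1: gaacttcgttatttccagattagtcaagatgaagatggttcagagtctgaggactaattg
Rpl36a: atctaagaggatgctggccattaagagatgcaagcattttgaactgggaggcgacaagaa
Rpl36al: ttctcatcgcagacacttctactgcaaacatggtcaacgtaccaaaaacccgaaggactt
The Rps9 probe lay at chr7:3327614-3327673 on the plus strand. The Rpl3 probe lay on the minus strand at chr15:80164240-80164814, spread over 575 bases of the genome, so that it spans an exon junction. The same held for Rps15a (chr7:114037415-114037718, minus strand) and Rps24 (chr14:22159843-22161168, plus strand). The probe of Rpl22 lay at chr4:151319591-151319650 and that of Rpl22l1 at chr3:28622984-28623043, both on the plus strand. The probe of Rpl36a lay on the plus strand at chrX:129306720-129306779 and that of Rpl36al on the minus strand at chr12:67124603-67124662.

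Unless stated otherwise, values below give NP over low NP on the log2 scale, a direction opposite to that of the deposited value table of the series. Each ± gives how far either array lay from their mean, which measures the dye swap, and not the spread between animals if both arrays hold the same pools. To be called, a gene had to pass 1.5-fold (0.585 on the log2 scale) in a shared direction on each array. With 1 replicate counted per diet, the diets were compared without a test or p-value. Of the 82 members, 81 were measured in each tissue, with a signal well above background on each array in 1 channel or more, and the same 81 passed in both channels. The exception was Rpl3l, the paralogue of Rpl3 known from striated muscle.

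The pools themselves stood apart in ways their labels do not state, and this touches every comparison below. The low-NP liver pool held more lymphocyte mRNA than the NP liver pool. The summed intensity of 10 B cell markers (Cd79a, Cd79b, Ms4a1 and others) was between 3130 and 5540 in NP liver and between 47000 and 58800 in low-NP liver, and 8 of 10 were called lower in NP liver, with a median of -2.10. Of 10 T cell markers, 8 were called lower, with a median of -1.94 and summed intensities between 3130 and 4960 in NP liver and between 14700 and 22200 in low-NP liver. The low-NP spleen pool held hepatocyte mRNA. The sum over 9 hepatocyte markers was between 18800 and 66100 in NP spleen and between 1310000 and 1790000 in low-NP spleen, beside 1060000 to 1800000 in the liver pools, and all 9 were called lower, with a median of -6.17. In the spleen comparison the B cell markers had a median of 0.19 and the T cell markers one of 0.09, with no gene called. Exocrine pancreas genes were lower in the NP pools of both tissues, with 9 of 9 measured genes called in liver and 9 of 10 in spleen. Their sum was between 155000 and 176000 in NP liver, between 337000 and 366000 in low-NP liver, between 208000 and 377000 in NP spleen and between 1270000 and 1410000 in low-NP spleen. Of the other lists, 3 of 8 erythroid, 4 of 10 macrophage and 1 of 12 housekeeping genes were called lower in liver. In spleen, 3 of 10 erythroid genes were called higher in the NP pool, with a median of 0.55. Of 10 macrophage genes, 2 were called lower in spleen. These were Vsig4 and Clec4f, known from the Kupffer cells of the liver, with means of -1.47 and -2.85. The macrophage list had a spleen median of 0.11, with 7 of 10 genes above 0. No housekeeping gene was called in spleen.

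In liver, the NP pool held less ribosomal protein mRNA than the low-NP pool. Over 81 members the median was -0.61, with -0.41 on array 1 and -0.75 on array 2, and the middle 50% of members lay between -0.72 and -0.47. Of the 81 members, 15 were called lower, where 3.63% of 17100 measured genes were, and 0 were called higher, where 0.0702% of measured genes were. The mean of both arrays was below 0 for 79 members. Both arrays were below 0 for 67 members, against 30.7% of measured genes, and both were above 0 only for Rps19bp1. The remaining 13 members had opposite signs on the arrays, where 40.0% of measured genes had. The median over all measured genes was 0.00. When arrays were only centred on their median, without the correction for intensity, the members' median was -0.26 and none was called.

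**Figure D1:**
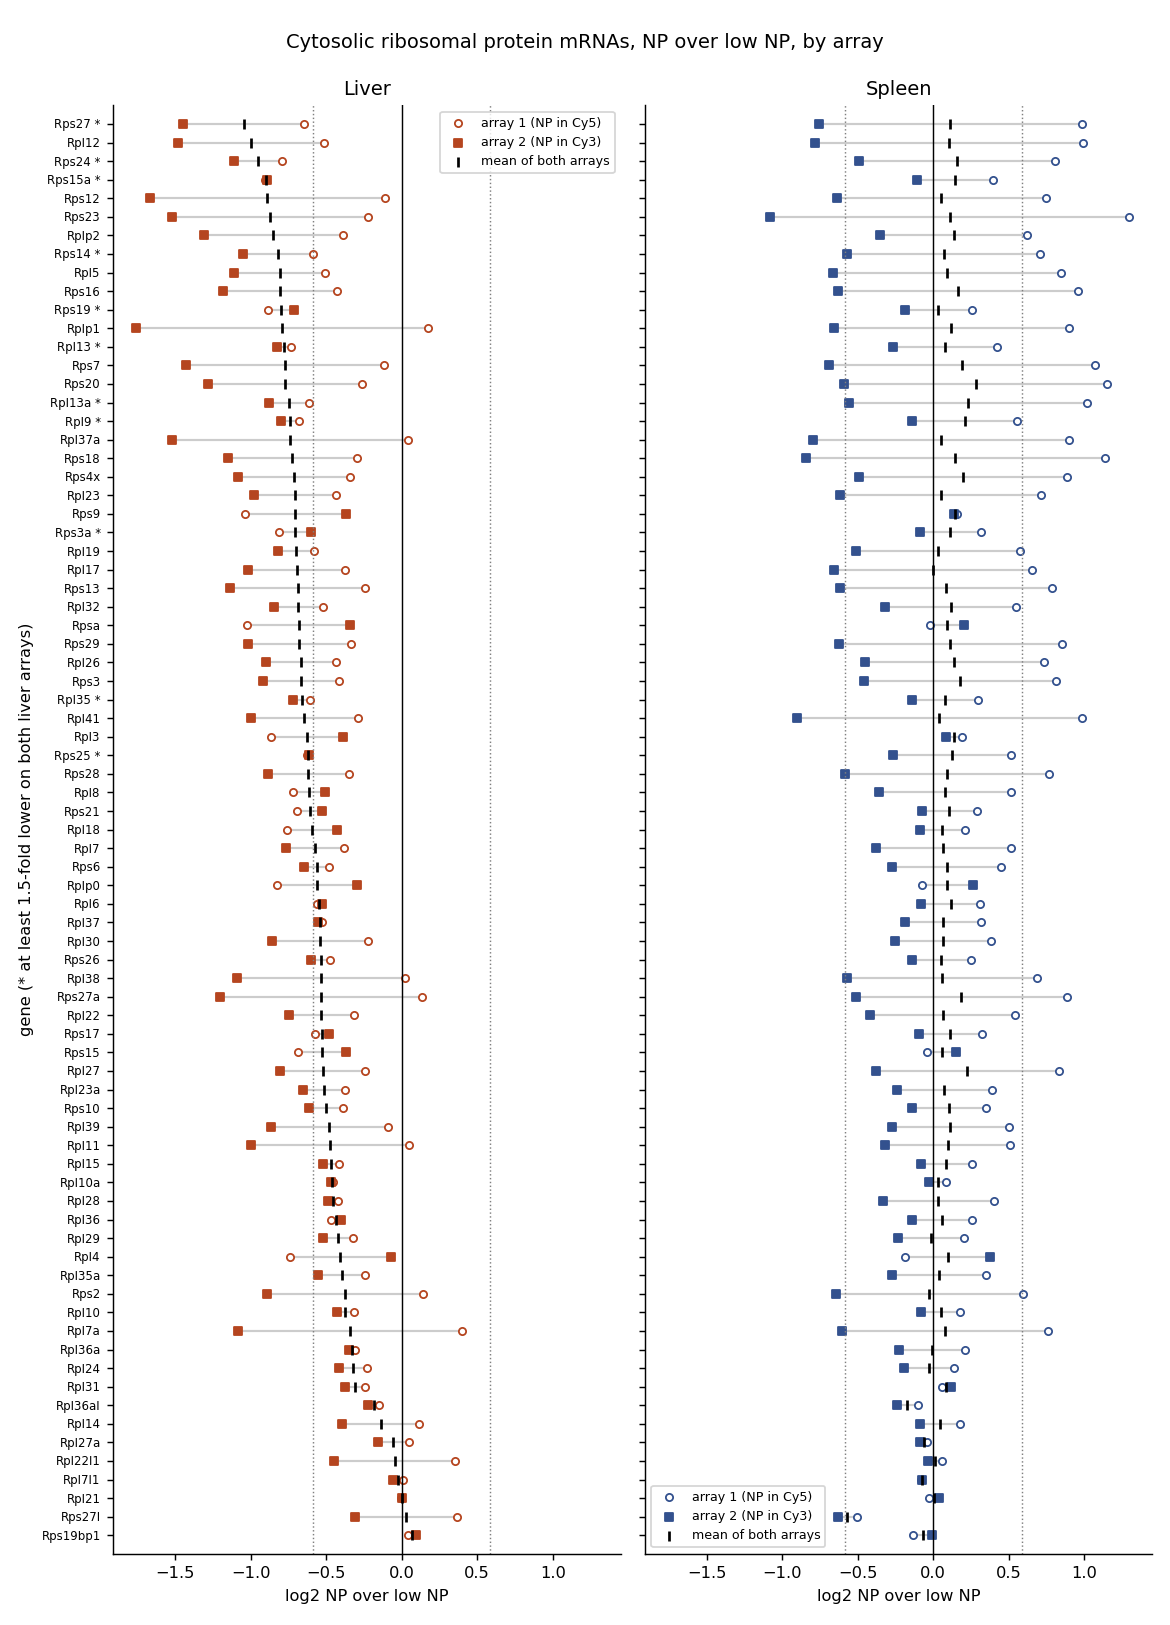
The log2 ratio of NP over low NP (horizontal axis) of 77 ribosomal protein mRNAs, sorted by their liver mean, is plotted for liver (left) and spleen (right), with open circles for array 1, filled squares for array 2, black ticks for their mean, dotted lines at 1.5-fold and stars at the 11 of these genes called lower in liver, while 4 further called members are not plotted. The liver means reach from -1.05 for Rps27 to 0.07 for Rps19bp1, while in spleen most open circles lie above 0 and most squares below it.

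Small-subunit proteins had the lower median, -0.68 against -0.54 for the large subunit, and 10 of 33 small-subunit members were called lower against 5 of 48. These ranges overlapped widely, and the difference between subunits was not tested. Rps27, a zinc-binding protein of the small subunit, read -0.65 on array 1 and -1.45 on array 2, the lowest mean of all members at -1.05 ± 0.40. That mean stands for Rps27 mRNA 2.07-fold lower in NP liver than in low-NP liver, but array 1 alone did not reach 2-fold. The Rps27 probe had a mean log2 intensity of 17.04, in the range where the median dye deviation given below was largest. Rps24, which is mutated in some families with Diamond-Blackfan anaemia, a failure of red cell production, read -0.79 and -1.11, with a mean of -0.95 ± 0.16. Rps15a, with the probe printed above, read -0.90 and -0.89. Its arrays were nearly equal, which makes its mean of -0.90 one of the values least dependent on the dye.

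The head of the small subunit, where tRNAs and mRNA pass, was represented by 13 members, all below 0 on both arrays. Their median was -0.66, and 3 of them were called lower, Rps19 and Rps25 among them. Rps19, the protein most often mutated in Diamond-Blackfan anaemia, read -0.89 and -0.71, with a mean of -0.80 ± 0.09. Rps25, used by some viral mRNAs to enter the ribosome, read -0.63 and -0.62. Rps12 had the lowest mean of the head proteins, -0.89 ± 0.78, but with -0.11 on array 1 and -1.67 on array 2 it was not called. Rps3a, with -0.81 and -0.60, and Rps14, with -0.59 and -1.05, were also called lower. Rps6, the protein phosphorylated by S6 kinase downstream of mTOR, read -0.48 and -0.64 and was not called. Rpsa, also known as the laminin receptor precursor, read -1.02 and -0.34.

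On the large subunit, the called members included Rpl9, Rpl13, Rpl13a and Rpl35. Rpl13 read -0.73 and -0.83, with a mean of -0.78 ± 0.047. Rpl13a, which is known also for a role in silencing inflammatory mRNAs, read -0.62 and -0.88. Rpl35, at the mouth of the exit tunnel, read -0.61 and -0.72, and was the only called member among 7 tunnel proteins, all below 0 on both arrays with a median of -0.66. Rpl5 and Rpl11, which bind the 5S RNA and can hold back Mdm2, the inhibitor of p53, differed in how the arrays agreed. Rpl5 was below 0 on both arrays, at -0.51 and -1.11, whereas Rpl11 read 0.05 and -1.0. The stalk proteins, which recruit the elongation factors, were all lower on average and none was called. Rplp0 read -0.83 and -0.29, Rplp2 read -0.39 and -1.31, and Rplp1 read 0.17 and -1.76. The position given for the Rplp0 probe lies on chromosome 8, whereas RefSeq places the gene on chromosome 5, so this probe may read another copy.

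The paralogues lay near 0, and above the genes they resemble where the brightest probe stood for each. Rpl22 read -0.32 and -0.75 in liver, but its dimmer second probe read 0.06 and -0.02, close to its paralogue. Rpl22l1 read 0.36 and -0.45, with a mean of -0.05 ± 0.40. Rpl36a read -0.31 and -0.35, with a mean of -0.33 ± 0.02, and Rpl36al read -0.15 and -0.22, with a mean of -0.18 ± 0.04. For this last pair each array gave the lower value to Rpl36a, and the arrays of the chosen probes did not overlap. Further Rpl36a probes, nearly as bright, read -0.21 and -0.55, and -0.17 and -0.56. These were also lower than Rpl36al on each array, but their arrays overlapped those of Rpl36al. For Rpl22 and Rpl22l1 the arrays of the chosen probes did overlap. Rps27l, a paralogue of Rps27 that is a known p53 target, read 0.36 and -0.31, with a mean of 0.03. Rpl7l1, which works in ribosome assembly, read 0.01 and -0.06. Rps19bp1 is caught by the naming rule but encodes a protein that binds Rps19, not a ribosomal protein, and read 0.04 and 0.09. Among the core proteins, Rpl21, Rpl27a and Rpl14 also lay near 0, at 0.00, -0.06 and -0.14.

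Of the 82 members, 41 had several probes, and 38 of these had several measured probes in liver. For 11 of the 38, the probes spanned more than 0.5 on the log2 scale. In none of the 11 was the probe nearest 0 the chosen one, and probes not chosen are dimmer by rule. Rps24 is an example, at -0.95 for the brightest probe and at -0.24 and 0.02 for dimmer probes with mean log2 intensities of 9.88 and 8.88. The 18 further probes with a mean log2 intensity of 15 or above, from 15 members, differed from the brightest probe of their gene by -0.07 to 0.20 in liver. The second Rpl13 probe read -0.74 beside -0.78 for the brightest, that of Rps21 read -0.40 beside -0.61, and a probe of Rpl7a read -0.15 beside -0.34. In spleen none of 40 such members spanned more than 0.5. Most ribosomal protein genes have processed copies. RefSeq names 315 pseudogenes of 62 members, and a 60-base probe may also bind their transcripts.

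In spleen no member was called in either direction, where 6.33% of 18567 measured genes were called lower and 0.0431% were called higher. The median was 0.08, with 0.47 on array 1 and -0.27 on array 2, and 76 of 81 members had a mean within 0.2 of 0. The arrays opposed each other for 73 members, against 40.4% of measured genes, and 18 members passed 1.5-fold in opposite directions. Both arrays were below 0 for 5 members, where 36.3% of measured genes were. Rps23, a decoding-centre protein with a saturated spot in spleen, was the extreme, at 1.30 on array 1 and -1.08 on array 2. The sign of the spleen median depended on the scaling, with -0.23 under median centring, where all measured genes had a median of -0.15, and -0.01 with the scanner software's own processed signals. Rps27l was the lowest member in spleen, at -0.51 and -0.63, with a mean of -0.57 ± 0.06, and the arrays were close to each other. Rps20, a head protein, had the highest mean at 0.28 ± 0.87, but from 1.15 and -0.59.

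Rps9, Rpl3 and Rpl31 were singled out after their values were seen, as the core members with both liver arrays below 0 and both spleen arrays above it. They were the only 3 of 81 members above 0 on both spleen arrays, where 4325 of 18567 measured genes were. Below 0 on both liver arrays were 30.7% of measured genes. How many genes combined both signs was not counted, so the pattern is not shown to be particular to these members. Rps9, which helps to unwind mRNA at the entry channel, read -1.04 and -0.37 in liver and 0.16 and 0.14 in spleen. Rpl3, which lies near the peptidyl transferase centre, read -0.86 and -0.39 in liver and 0.19 and 0.08 in spleen. Rpl31, a protein at the tunnel exit, read -0.24 and -0.37 in liver and 0.06 and 0.12 in spleen. The dimmer second probe of Rpl31 read 0.01 and -0.39 in liver and 0.03 and -0.08 in spleen. Its arrays thus opposed each other in both tissues. For the chosen probes, liver and spleen arrays cannot overlap, since the genes were picked by sign. The spleen values of these probes were all far from 1.5-fold.

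The signed difference between the dye orientations tended to be larger for brighter probes. In the medians below, deviations of opposite sign cancel, so they do not give the size of the deviations. The deviation of array 1 from the mean of both arrays had a median of 0.04 in liver and 0.02 in spleen over the 17 members with a mean log2 intensity below 15. For the 18 members between 15 and 16 the medians were 0.00 and 0.21, for the 32 between 16 and 17 they were 0.18 and 0.54, and for the 14 at 17 or above they were 0.51 and 0.76. Other genes of that brightness did the same, with 0.70 in liver and 0.57 in spleen over the 20 at 17 or above. Between 15 and 16, where the median liver deviation was nearest 0, the members' liver median was -0.54, with -0.54 on each array, against -0.14 for 244 other genes. In that range 4 of 18 members were called lower. At 17 or above the medians were -0.80 for members and -0.29 for other genes, and 2 of 14 members were called. Of the 218 other genes at least as bright as the lower quartile of the members, 15.6% were called lower in liver and 23.9% in spleen. Of the 61 members in that range of brightness, 15 (24.6%) were called lower in liver and 0 in spleen. The difference between members and other genes was not tested.

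**Figure D2:**
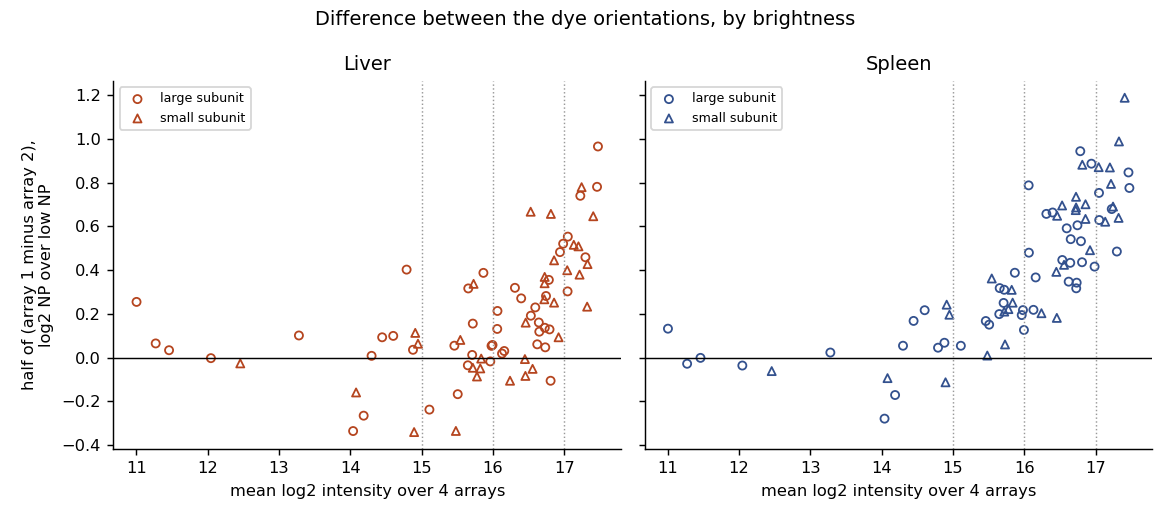
The deviation of array 1 from the mean of both arrays in log2 NP over low NP (vertical axis) is plotted against the probe's mean log2 intensity over 4 arrays (horizontal axis) for 81 members, with circles for the large subunit, triangles for the small subunit and dotted lines at 15, 16 and 17. In both tissues the points climb with intensity, to medians of 0.51 in liver and 0.76 in spleen at 17 or above.

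Levels in the 4 pools were compared probe by probe on normalized log2 intensities. In the NP pools the members were higher in spleen than in liver, with a median difference of 1.49 (2.81-fold), and 71 of 81 were at least 2-fold higher, where 17.0% of measured genes were. In the low-NP pools the median was 0.78 (1.72-fold), with 26 of 81 at least 2-fold higher, where 12.0% of measured genes were, and the difference was smaller than in the NP pools for 77 of 81 members. For each gene, the change between the diets equals its spleen ratio minus its liver ratio of NP over low NP. The smaller difference in the low-NP pools thus restates those ratios and is no separate result. The share of all genes with a smaller difference was not counted, and their medians were 0.036 in the NP pools and 0.045 in the low-NP pools. The size of the tissue differences rests on the scaling. With the processed signals set to a common 75th percentile, the median was 0.58 in the NP pools and -0.17 in the low-NP pools, and the median of all genes was 0.37 and 0.35, so that members lay 0.21 above all genes in the NP pools and -0.52 from them in the low-NP pools.

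Rps19 differed most between tissues in the NP pools, with log2 intensities of 14.22 in NP liver, 15.02 in low-NP liver, 16.81 in low-NP spleen and 16.84 in NP spleen. Between the low-NP pools Rpl22l1 differed slightly more than Rps19, by 1.80 against 1.79. Rps15a followed Rps19 in the NP pools, with 14.29, 15.19, 16.74 and 16.89 in the same order. Rps2, a protein of the mRNA entry channel, differed little, at 16.87, 17.25, 17.22 and 17.19. Rps27l went the other way, with 16.13 in NP liver, 16.10 in low-NP liver, 15.71 in low-NP spleen and 15.14 in NP spleen. For 78 of 81 members the low-NP liver pool lay between NP liver and NP spleen, and under the 75th percentile scaling this held for 37. The step from NP liver to low-NP liver in this order restates the liver ratio, whose mean was below 0 for 79 members. The share of all genes in this order was not counted.

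**Figure D3:**
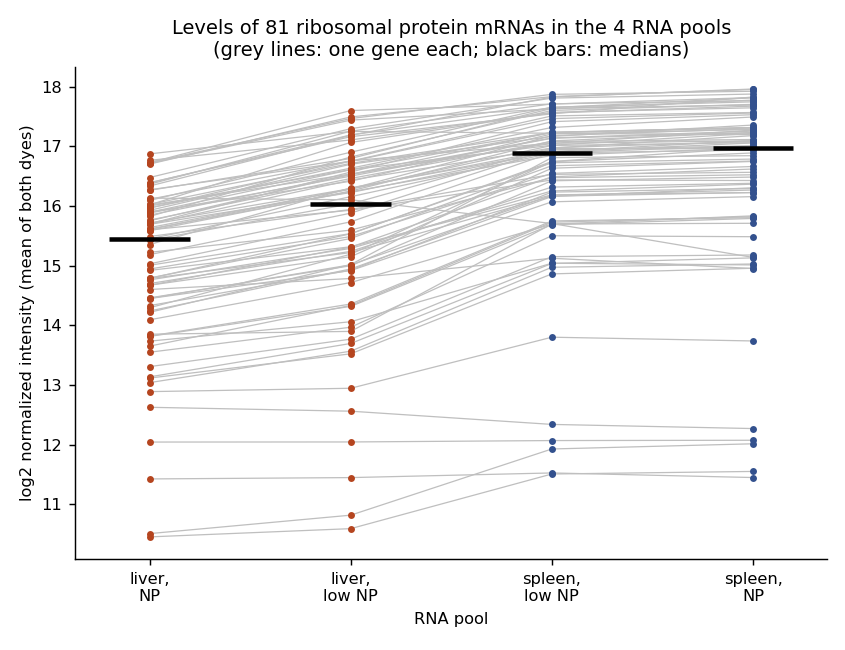
The normalized log2 intensity (vertical axis, mean of both dyes) of 81 ribosomal protein mRNAs is plotted in the 4 RNA pools (horizontal axis), with a grey line per gene and black bars at the medians. For 78 genes low-NP liver lies between NP liver and NP spleen, an order that in part restates the liver ratios, and the line of Rps27l falls from liver to spleen.

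The liver comparison was also set beside the difference between tissues. Both measures contain the NP liver level, so a relation between them arises in part from how they are computed, and none is given as a result. For each gene at least 2-fold higher in NP spleen than in NP liver, the intensity that low-NP liver held above NP liver was set in percent of the intensity that NP spleen held above NP liver. The median was 26.7% over 71 members, 15.6% over 10 B cell markers, 18.2% over 8 T cell markers and 13.8% over all 3242 such genes. These medians depended on the array. With array 1 of each tissue they were 17.6% for members, 10.99% for B cell markers, 12.1% for T cell markers and 6.98% for all such genes. With array 2 they were 37.3%, 21.2%, 24.4% and 20.3% in the same order. The members had the highest median on each array, but their array 1 value lay below every array 2 value. Single members could differ more, as Rps23 did with 12.8% and 195.4%. Brightness moved with this share. The 12 members below a log2 intensity of 15 had a median of 14.2%, beside 13.7% for other genes, and the 17 between 15 and 16 had 19.8% beside 17.2%. The 30 between 16 and 17 had 33.6% beside 26.5%, and the 12 at 17 or above had 48.1% beside 44.1%, the latter over 3 other genes. The members' share thus rose with brightness together with that of the other genes. The members whose liver mean lay within 0.1 of 0 were Rpl7l1, Rpl21, Rpl27a, Rps27l, Rps19bp1 and Rpl22l1. The first 5 of these were among the 10 members less than 2-fold higher in NP spleen than in NP liver, whereas Rpl22l1 was higher by 1.86 on the log2 scale. The other 5 of the 10 read lower in liver, with means of -0.64 for Rpl41, -0.38 for Rps2, -0.34 for Rpl7a, -0.33 for Rpl36a and -0.18 for Rpl36al. The overlap of these groups also rests on the shared NP liver level and is not given as a result. The part of the lymphocyte mRNA in the liver values of the ribosomal proteins was not tested.

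**Figure D4:**
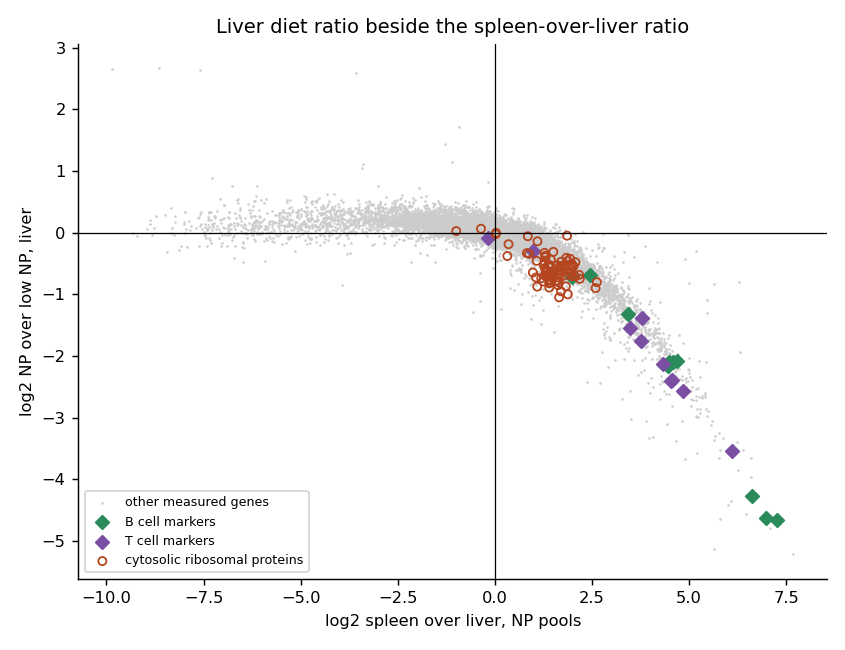
The liver log2 ratio of NP over low NP (vertical axis) is plotted against the log2 ratio of spleen over liver in the NP pools (horizontal axis) for all measured genes (grey), B and T cell markers (diamonds) and ribosomal protein mRNAs (open circles). The members sit around a median of 1.49 on the horizontal and -0.61 on the vertical axis. Both axes contain the NP liver level with opposite sign, so part of any downward slope comes from that shared value.

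Other genes of translation were compared with the members through lists. Mitochondrial ribosomal proteins, which build the separate ribosome of mitochondria, were not lower in NP liver: none of 75 was called and the median was 0.06. In spleen their median was -0.16, again with none of 75 called. None of 42 measured initiation factors was called in liver, with a median of -0.04, and none of 61 genes of ribosome biogenesis, with a median of -0.06. Under median centring these last medians were 0.19 and 0.01, and the mitochondrial one was 0.27. These lists were not matched to the members in brightness or tissue difference. Their median spleen over liver in the NP pools was -0.57 for mitochondrial ribosomal proteins, 0.41 for initiation factors and 0.45 for ribosome biogenesis, beside 1.49 for members. Whether the liver values are particular to cytosolic ribosomal proteins was therefore not tested.

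Of 20 other mRNAs known to carry a TOP tract, 19 had a mean below 0 in liver, with a median of -0.33, and 1 was called lower. Under median centring their median was -0.03 and none was called. The called gene was Eef1b2, an exchange factor of elongation, at -0.60 and -0.65. Fau, which encodes the precursor of a small-subunit protein outside the naming rule, had the lowest mean of the list at -0.81 ± 0.24, from -0.57 and -1.05. Gnb2l1, the scaffold now named Rack1, read 0.24 and -1.51. Among the elongation factors, Eef1g read -0.85 and -0.29, Eef2 read -0.68 and 0.22, and Eef1a1 read 0.45 and -0.95. In spleen this list had a median of 0.05, with none of 20 called.

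**Figure D5:**
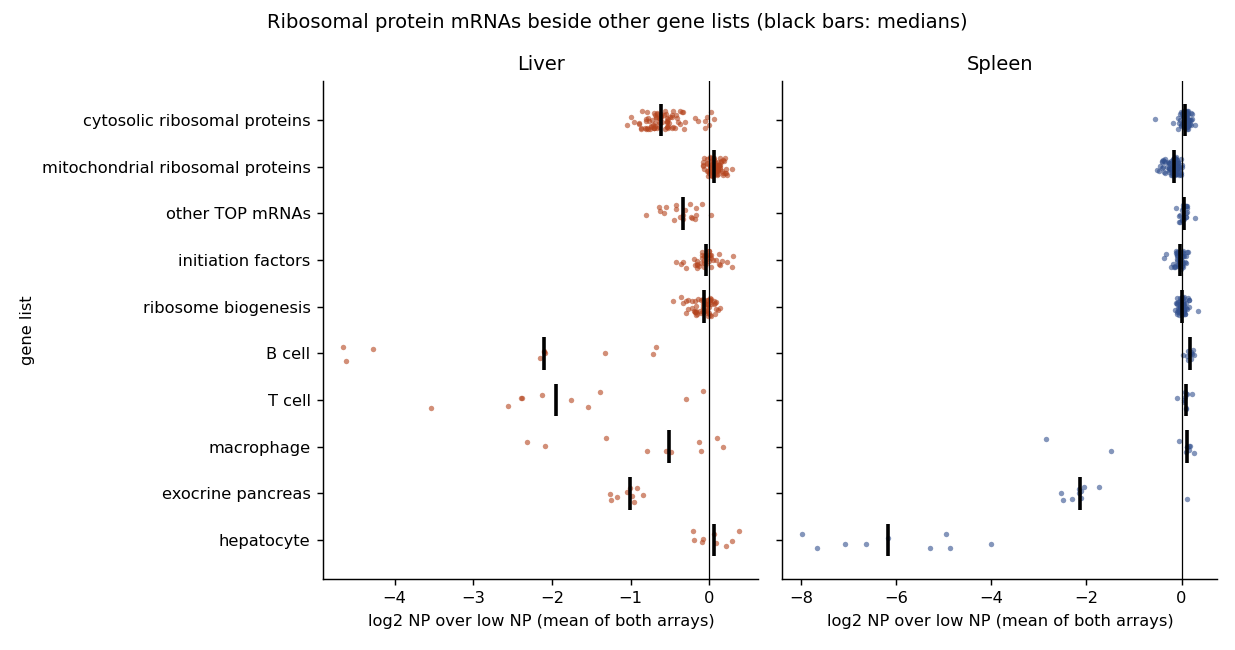
The log2 ratio of NP over low NP (horizontal axis, mean of both arrays) is plotted for each measured gene of 10 gene lists in liver (left) and spleen (right, with its own scale), with black bars at the medians. In liver the cytosolic ribosomal proteins centre on -0.61 and the mitochondrial ones on 0.06, while the B and T cell markers reach far lower.

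The start of the gene was searched for the TOP tract in RefSeq promoter sequences of GRCm38.p6, which held 62 of the 82 members. The tract was taken as a C at the annotated start base followed by at least 4 bases that are each C or T, on the strand of the gene. It was found at the start base of 13 of 62 members, or 21.0%, and of 3.01% of 27025 genes with a promoter in the table. When the tract could begin within 5 bases on either side of the start, it was found for 45.2% of members and 21.2% of all genes. The windows below are shown for called and uncalled members with the tract and for a pair of paralogues without it, each with 15 bases before the start and 15 bases from the start on. The capitals mark the tract.
Rps15a: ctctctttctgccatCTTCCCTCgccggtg
Rps27: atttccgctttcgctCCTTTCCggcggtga
Rpl35: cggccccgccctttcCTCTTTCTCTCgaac
Rps6: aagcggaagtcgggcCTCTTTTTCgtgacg
Rps10: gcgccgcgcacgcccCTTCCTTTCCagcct
Rpl36al: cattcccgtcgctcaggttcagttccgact
Rpl7l1: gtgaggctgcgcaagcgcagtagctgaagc
These windows lie on the minus strand, for Rps15a at chr7:118116133-118116162, for Rps27 at chr3:90213634-90213663, for Rpl35 at chr2:39005117-39005146, for Rps6 at chr4:86857353-86857382, for Rps10 at chr17:27635230-27635259, for Rpl36al at chr12:69184053-69184082 and for Rpl7l1 at chr17:46782642-46782671. The liver median was -0.56 over the 13 members with the tract at the start base and -0.61 over the 48 measured members without it there, with 3 and 7 called lower. The liver values of the members therefore did not separate by the tract as found at the annotated start. Since the share of members with a tract rose to 45.2% within 5 bases, some members without it at the start base may still carry it. The split thus cannot show whether the values follow the tract itself.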

How the data were processed

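Per the file headers, the deposited scanner files hold mean and background intensity of each spot with quality flags. The submitters' processing notes name Agilent Feature Extraction 9.5.3.1. Processed intensity and a log10 ratio (Cy5 over Cy3) stand beside them in the deposited files. The series' deposited table gives log10 ratios too. Set against the scanner ratios its columns correlated at -0.992, 0.991, -0.993 and 0.998, so every column gives low NP over NP, opposite to the direction used here. Its column medians of 0.02, -0.07, -0.01 and -0.04 show that it is not exactly centred, and its making is not stated in the sources used here.

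In limma 3.58.1 under R 4.3.3, background was corrected with normexp (offset 50) and ratios were normalized by loess within arrays, with control and outlier spots given no weight. Pool levels came from each channel after loess and Aquantile. Between 58.6% and 94.7% of probes per channel were well above background, with the highest shares on spleen array 1. The 4 arrays lie on 1 slide, and their number limits the precision. Values were tabulated with Python 3.11.15, and the calling rule was checked on simulated data. That simulation used a single noise level per tissue and no dye offset that grows with brightness. It therefore does not cover the dye offsets of the bright members. Of the members, 76 matched RefSeq by accession to the same symbol, 5 had no match and Rps3a matched Rps3a1.

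The named members are those called, the 8 lowest and 8 highest per tissue, the stalk proteins, Rpsa, paralogues, members whose probes differ by over 0.5, those with extreme tissue differences and those whose arrays oppose each other. The members, lists and alternatives were chosen with earlier results of these data known. Some member genes are not reported here by name, though they stay in every count and median.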

Additional observations from a re-analysis of the deposited data

Results flagged for a closer look

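With 2 arrays per tissue, no array could be set against the spread of its group. By their brightest probe, the members below had both liver arrays on the opposite side of 0 from both spleen arrays. The second probe of Rpl31 did not keep this pattern. The difference between tissues was not tested in any of these members, and the share of all genes with such signs was not counted. Liver minus spleen in log2 NP over low NP was -0.85 for Rps9, -0.76 for Rpl3 and -0.40 for Rpl31, with liver lower. It was 0.13 for Rps19bp1, which is not a ribosomal protein, with liver higher.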

How the results depend on the processing

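No paired analysis was possible because no result comes from a test: each ratio is already taken within an array, and both arrays of a tissue were taken to hold the same pools, which the labels leave unsettled. Among the 81 members, the 15 called lower in liver became 0 under median centring or a 2-fold threshold, 47 at a threshold 25% above equality and 9 of 50 without the members at least 2-fold higher in NP spleen than in low-NP liver. That last choice uses the low-NP liver level, which also sets the ratio, so it is no independent check. At that lower threshold 1 member was called lower in spleen. The liver median was -0.26 under median centring, and stayed between -0.65 and -0.53 under the other settings that kept both arrays. With 1 array left out, between 24 and 51 members were called lower in liver, between 0 and 19 lower in spleen and between 0 and 30 higher in spleen. The medians then lay between -0.75 and -0.41 in liver and between -0.27 and 0.47 in spleen. The median of spleen over liver in the NP pools was 1.56 with quantile normalization, 0.58 with 75th percentile scaling, 1.43 over all measured probes, 1.51 without saturated members, and 1.52 and 1.53 with 1 array per tissue. In the low-NP pools it reversed to -0.17 with 75th percentile scaling, and was 0.58 and 0.99 with 1 array per tissue. The share of the spleen excess in low-NP liver, recomputed under alternatives added after seeing the data, had a member median of 20.2% with quantile normalization and 43.0% over 10 members with 75th percentile scaling. Over all genes, 621 were called lower in liver, but 1333 without background correction, 1809 with processed signals, 324 under median centring and 1762 in the deposited table. Genes called higher in liver numbered 12, but 119 with processed signals and 312 in the deposited table, and in spleen 8, but 30 and 48. The 20 members called lower with processed signals shared 14 genes with the 15, and the 16 from the deposited table shared 10. The causes were not tested.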
